A study of Mus musculus with 21 samples.

Results

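The Hox genes are described here in single myofibers of the soleus and the EDL of the mouse hindlimb. The members are all probes of the array whose gene name is Hoxa, Hoxb, Hoxc or Hoxd followed by a number, which gives 44 probes of 39 genes among 55681 probes, by a rule that names genes and uses no signal value. The array covered 11 Hoxa, 10 Hoxb, 9 Hoxc and 9 Hoxd genes, with 14, 11, 9 and 10 probes. Of the 21 myofibers, 11 were labelled type 1 and came from the soleus, a slow oxidative muscle, and 10 were labelled type 2B and came from the extensor digitorum longus (EDL), a fast glycolytic muscle. Each fiber was typed by the myosin heavy chain protein in a clipped piece of it, and the RNA of the rest was amplified and hybridized to an array of its own. The fibers came from 9 untreated CD1 mice of 3 months, 6 mice for each type, and 3 mice (3, 4 and 9) gave both types. The labels give the mice as males, the methods of the study as females, and the Y-linked gene Ddx3y was well above background in all 21 fibers. Every type 1 fiber was from soleus and every type 2B fiber from EDL, so that fiber type and muscle cannot be told apart in any difference below.

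Hox genes encode transcription factors that bind DNA through a homeodomain and give cells their position along the body and limb axes. They lie in 4 clusters, in which the order of the genes follows their order of use: genes with low paralog numbers act early and toward the head, and those with high numbers act late, toward the tail and toward the tip of the limb. The posterior genes of the Hoxa and Hoxd clusters pattern the limb, several Hoxc genes mark the hindlimb, and adult cells of the limb often keep part of this positional pattern. Soleus and EDL both lie in the lower hindlimb.

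The probes are 60 bases long. The reading of the array rests on them because Hox genes share their homeobox, so probes were compared with each other. The longest run of bases shared by probes of different Hox genes was 11 bases. Probes were not aligned with the transcripts of other Hox genes, so this comparison cannot show whether a probe binds a second Hox transcript. Of the 44 probes, 4 held, in 1 frame, the codons of a short homeodomain stretch that was searched for. Other probes may also lie in the homeobox. Of the 4, 3 are shown whole because a homeobox is where paralogs are most alike. Capitals mark a stretch of conserved homeodomain codons found in the probe.
Hoxa13 A_55_P1970075: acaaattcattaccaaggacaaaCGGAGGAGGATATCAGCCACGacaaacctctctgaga
Hoxc11 A_55_P2028399: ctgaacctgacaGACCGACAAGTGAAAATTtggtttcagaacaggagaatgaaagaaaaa
Hoxd10 A_52_P407049: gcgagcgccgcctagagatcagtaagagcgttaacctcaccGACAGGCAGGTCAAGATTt

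The Hoxb3 probe A_51_P460643 is the only 1 of the 44 whose accession list names transcripts of 2 genes, Hoxb3 and Hoxd3, so its signal cannot be given to either gene alone. The probes that carried the other differences between the types, and the second Hoxa13 probe, are shown by their first 30 bases, in lower case because no part of them is singled out.
Hoxa4 A_55_P2219982: atataatctagagacctggatcagtttctc
Hoxa11 A_51_P102911: tgaatgtatgcttcatacagggatggtgtt
Hoxa13 A_51_P303316: gaccactagttaatggattaaaaggtggag
Hoxc10 A_51_P375754: ggaaagaaagggggataatcaaacagagag
Hoxd9 A_52_P385584: ggacactgtatttgctcgcatatgtattgg

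Before the results, 2 features of the arrays bear on every Hox value. The 8 arrays of slide 1, 4 of each type, were brighter than the other 13, with a 75th percentile of 335 to 520 against 52.8 to 180 scanner units, and 73.2% to 79.8% against 38.6% to 63.1% of their spots were well above background. This flag of the scanner software says that a spot exceeds its local background by a set margin. The type 1 fiber S6.4 stood apart from its group. Its log2 signal of Myh7, the slow myosin gene, was 9.22 against 15.53 to 16.28 in the other type 1 fibers, and its Myh2 signal was 15.22, which goes against a pure type 1 fiber, so the called Hox probes are given with and without it, and the other called genes where the call changed. Col3a1, a collagen gene of connective tissue, was lower in type 2B fibers by 2.45 on the log2 scale (Benjamini-Hochberg adjusted p = 0.00144, limma). Scx, a tendon gene, was lower by 0.85 (adjusted p = 0.0067), and so were the 3 probes of Ncam1, a marker of satellite cells, by 2.08 to 2.50. No other gene passed among the markers of connective tissue, satellite cells, tendon, endothelium, blood cells, Schwann cells and smooth muscle. The summed signal of the 5 connective tissue markers lay at 281 to 4750 for type 1 fibers and at 212 to 689 for type 2B fibers, that of the 5 satellite cell markers at 1540 to 8460 and 815 to 4850, and that of the 3 tendon markers at 547 to 1130 and 299 to 643. Of the 5 satellite cell markers 4 were well above background in at least 50% of the fibers of a type, of the 5 connective tissue markers 2 and of the 3 tendon markers 1. Pax7, the defining gene of satellite cells, exceeded background well in 8 fibers of type 1 and 2 of type 2B, while Pdgfra, Tnmd and Myf5 did in no fiber. The part of these cells in the Hox results was not tested.

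A broad set of Hox genes gave signal in both muscles. Counting a gene as detected in a type when 1 of its probes was well above background in at least 50% of the fibers, 23 of 39 genes were detected in type 1 and 22 in type 2B fibers. There were 21 genes detected in both types and 15 in neither, so that the types shared nearly all of the genes they had. Taken by probe, 56.8% of Hox probes passed in type 1 and 54.5% in type 2B fibers, against 61.2% and 61.4% of all probes of the array. Across the array 30.3% of probes were well above background in all 21 fibers and 11.0% in none, against 22.7% and 18.2% of the Hox probes. The Hox probes were thus detected somewhat less often than all probes, a difference that was not tested.

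**Figure D1:**
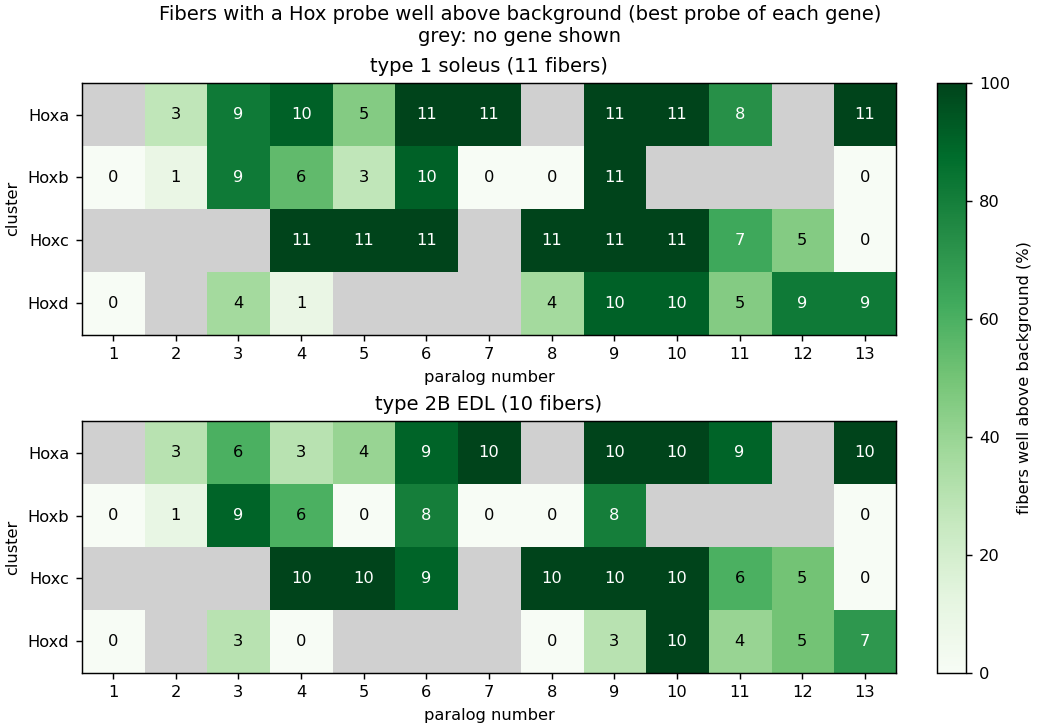
Number of fibers, of 11 type 1 soleus (top) and 10 type 2B EDL (bottom), in which the best probe of a Hox gene was well above background, for 38 of the 39 genes, by cluster (rows) and paralog number (columns). Shading gives the same as a percentage of the fibers, and grey cells show no gene. Hoxc4 to Hoxc10 and Hoxa6 to Hoxa10 are filled in both types, while Hoxa4 and Hoxd9 go from 10 fibers to 3.

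By cluster, the Hoxc genes were detected most widely. In the Hoxc cluster 7 of 9 genes were detected in type 1 and 8 in type 2B fibers. Hoxc4, Hoxc5, Hoxc8, Hoxc9 and Hoxc10 were well above background in every fiber, Hoxc6 in all 11 and 9, Hoxc11 in 7 and 6, Hoxc12 in 5 and 5, and Hoxc13, which acts in hair and nail, in none. In the Hoxa cluster 8 of 11 genes were detected in type 1 and 7 in type 2B fibers. Hoxa7, Hoxa9, Hoxa10 and Hoxa13 were present in every fiber, Hoxa6 in 11 and 9, Hoxa3 in 9 and 6, Hoxa5 in 5 and 4, and Hoxa2 in 3 and 3.

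The Hoxb and Hoxd clusters were sparser. In Hoxb 4 of 10 genes were detected in either type. These were Hoxb9 in 11 type 1 and 8 type 2B fibers, Hoxb6 in 10 and 8, Hoxb4 in 6 and 6, and the probe shared by Hoxb3 and Hoxd3 in 9 and 9. The other Hoxb3 probe was well above background in no fiber. Hoxb2 was seen in 1 fiber of each type, Hoxb5 in 3 and 0, and Hoxb1, Hoxb7, Hoxb8 and Hoxb13 in none. In Hoxd 4 of 9 genes were detected in type 1 and 3 in type 2B fibers. Hoxd10 was present in 10 and 10 fibers, Hoxd13 in 9 and 7, Hoxd12 in 9 and 5, Hoxd11 in 5 and 4, Hoxd3 in 4 and 3, Hoxd8 in 4 and 0, Hoxd4 in 1 and 0, and Hoxd1 in none.

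By paralog number, the posterior genes were detected more often than the anterior ones. Of the 16 genes of paralog groups 9 to 13, 12 were detected in each type. Of the 11 genes of groups 5 to 8, 6 were detected in each type, and of the 12 genes of groups 1 to 4, 5 in type 1 and 4 in type 2B. The gap depended on the rule. Of these 16, 11 and 12 genes, 14, 9 and 10 were seen in at least 1 type 1 fiber, and 6, 5 and 1 in all type 1 fibers. For type 2B fibers the counts were 14, 7 and 9, and 6, 3 and 1. All 3 genes of group 10 and all 3 of group 6 were detected in both types. Probes are not replicates of a condition and differ in how well they bind, so that no test was made over the groups.

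Detection moved with the brightness of the array. Between 29 and 34 of the 44 Hox probes were well above background on slide 1, and between 13 and 27 on the other slides. The medians over all slides were 26 probes in type 1 and 22.5 in type 2B fibers. On slide 1 alone 31 genes were detected in type 1 and 29 in type 2B fibers, and without slide 1 21 and 17. Without S6.4 the counts were 23 and 22. A spot well above background is also not by itself a sign of a transcript in use. Among 9 ParaHox and related homeobox genes, which are mostly known from gut, pancreas and nervous system, 5 were detected by the same rule and 2, Gsx1 and Gbx1, in every fiber.

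Of the 44 Hox probes, 36 passed the filter on dim probes (a signal positive and significant against background in at least 50% of the fibers of a type) and were compared between the types with limma. None passed Bonferroni adjustment over the 46928 probes tested, which 1.43% of all probes did. With Benjamini-Hochberg adjustment 6 Hox probes of 6 genes passed, 16.7% of those tested, against 7.57% of all probes, and 11 had an unadjusted p below 0.05 (30.6%, against 18.5%). Hoxa4 and Hoxd9 were lower in type 2B fibers, where 4.09% of all probes were called in that direction. Hoxa11, Hoxa13, Hoxc10 and Hoxd10 were higher, a direction in which 3.48% of all probes were called. The median difference over the tested Hox probes was 0.04 on the log2 scale, and that over all tested probes was 0.028. Both called genes that were lower in type 2B were of lower paralog number than the higher ones of their own cluster. This order is of 6 probes picked by their p and was not tested. The uncalled genes beyond Hoxd10 did not follow it. The 2 probes of Hoxd11 differed by 0.19 and -0.65, Hoxd12 by -0.82 and Hoxd13 by -1.04. Without S6.4, 4 of the 6 probes passed, and on means per mouse 4 did. On slide 1 alone none did (12 had an unadjusted p below 0.05), and with slide as a block 3 did.

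**Figure D2:**
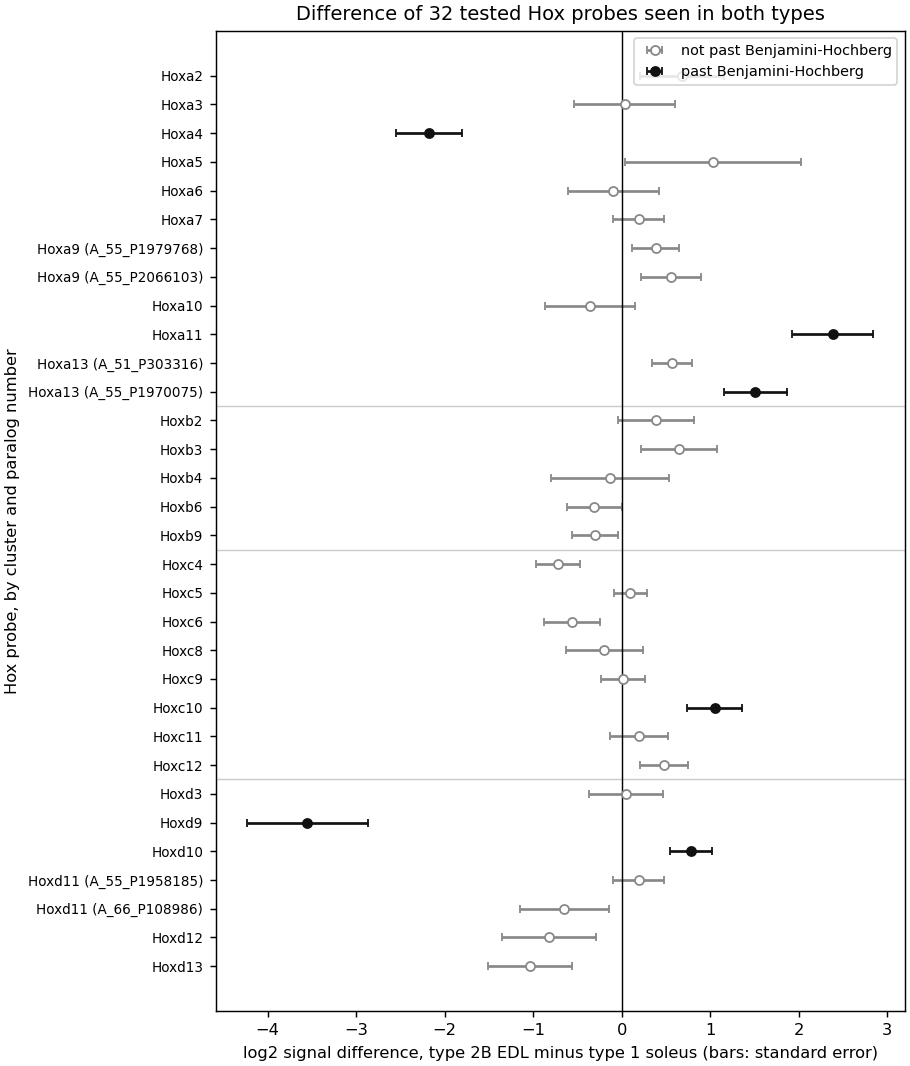
Difference in log2 signal, type 2B EDL minus type 1 soleus, with its standard error, for 32 of the tested Hox probes that were well above background in at least 1 fiber of both types, ordered by cluster and paralog number. Filled points passed Benjamini-Hochberg adjustment over 46928 probes: Hoxa4 and Hoxd9 lie to the left of 0, and Hoxa11, Hoxa13, Hoxc10 and Hoxd10 to the right.

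Hoxa4, an anterior member of its cluster, was lower in the EDL fibers. Its probe (mm9, chromosome 6, 52140287 to 52140346, minus strand) exceeded background well in 10 of 11 fibers of type 1 and 3 of 10 of type 2B. The log2 signal in type 1 fibers ran from 4.06 over a median of 5.52 to 6.41, and in type 2B fibers from 2.07 over 3.12 to 5.11. Of the type 2B fibers, 7 lay below every type 1 fiber, and the means of the mice did not overlap (4.91% of all tested probes). The mouse means averaged 5.69 ± 0.53 and 3.27 ± 0.60 (SD, n = 6 mice each; two-sided exact permutation test, p = 0.0022, and 6 against 6 can give no lower value). The permutation test, here and below, treats the means as independent, although mice 3, 4 and 9 gave a mean to both types. The fitted difference was -2.18 (standard error 0.37, Benjamini-Hochberg adjusted p = 0.00032, limma) and without S6.4 -2.14 (adjusted p = 0.0007). It was negative within mice 3, 4 and 9 (-1.32, -3.33 and -2.22) and within slides 1, 2 and 5 (-1.25, -2.06 and -3.51). Here and below, the value of mouse 9 sets the fiber S5.9 (slide 1) against E11.9 (slide 5). That of mouse 4 sets S6.4 and S9.4 against E10.4. As most type 2B values were near background, the size is uncertain. It was -0.54 after normexp background correction (adjusted p = 0.00084). That correction, here and below, adds an offset of 50, which by itself shrinks the differences of dim probes. The call was lost when mice entered as a fixed effect (0.0964) and on slide 1 alone (0.277). Hoxa4 passed Bonferroni without the fiber E15.3 (p = 0.0394) and without mouse 3 (p = 0.0438).

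Hoxd9, a posterior gene of its cluster with a role in the limb, showed the largest difference of the tested Hox probes. Its probe (mm9, chromosome 2, 74537676 to 74537735, plus strand) exceeded background well in 10 fibers of type 1 and 3 of type 2B. In type 1 fibers the log2 signal was 4.75 at the lowest, 7.67 at the median and 12.05 at the highest, and in type 2B fibers 1.72, 4.68 and 6.78. The fibers overlapped, with 5 type 2B fibers below every type 1 fiber, as did the mice, with 5 of 6 type 2B mice below every type 1 mouse. The mouse means were 7.61 ± 0.88 and 4.72 ± 1.48 (SD, n = 6 mice each; two-sided exact permutation test, p = 0.0043). The difference was -3.55 (standard error 0.68, Benjamini-Hochberg adjusted p = 0.00113, limma) and -3.67 without S6.4 (adjusted p = 0.00128). Within mice it was -3.32, -2.26 and -2.20 and within slides 1, 2 and 5 -4.75, -0.76 and -4.03. It was -1.87 after normexp correction, and the call was lost when mice entered as a fixed effect (adjusted p = 0.116), on slide 1 alone (0.106) and by the methods' t-test (0.714).

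**Figure D3:**
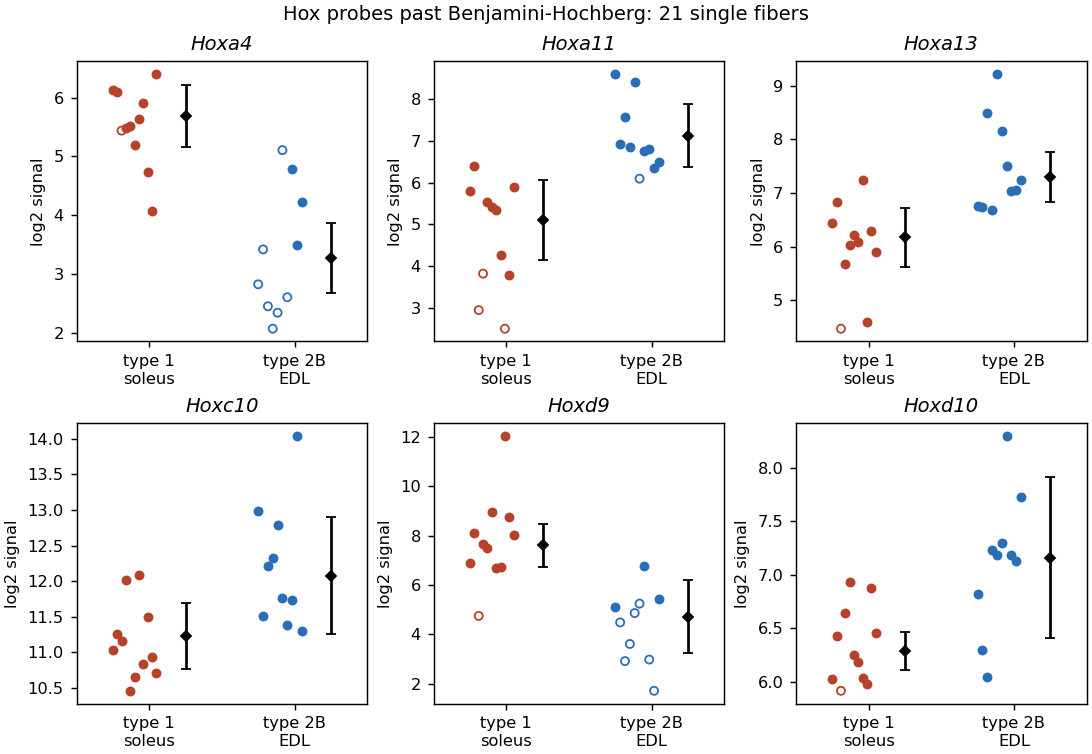
Log2 signal of the 6 Hox probes that passed Benjamini-Hochberg adjustment, 1 point per fiber (11 type 1 soleus in red, 10 type 2B EDL in blue). Filled points were well above background, hollow ones were not, and the diamond gives the mean and SD over 6 mouse means. Hoxa4 and Hoxd9 are mostly hollow in type 2B fibers, while 8 type 2B fibers of Hoxa11 lie above every type 1 fiber.

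Hoxa11, which shapes the middle segment of the limb and is known from limb muscle precursors, was higher in the EDL fibers. Its probe (mm9, chromosome 6, 52192107 to 52192166, minus strand) is printed 10 times on each array, and the SD between these spots had a median of 0.18 on the log2 scale. It exceeded background well in 8 fibers of type 1 and 9 of type 2B. The log2 signal was 2.50, 5.34 and 6.41 (lowest, median, highest) in type 1 and 6.09, 6.83 and 8.60 in type 2B fibers. Of the type 2B fibers, 8 of 10 lay above every type 1 fiber, and so did all 6 mouse means. These were 5.10 ± 0.97 and 7.12 ± 0.75 (SD, n = 6 mice each; two-sided exact permutation test, p = 0.0022). Among the 36 tested Hox probes, 2 (Hoxa4 and Hoxa11) had mouse means with no overlap, against 4.91% of all tested probes. The difference was 2.38 (standard error 0.46, Benjamini-Hochberg adjusted p = 0.00122, limma) and 2.34 without S6.4 (adjusted p = 0.00243). It was 2.99, 3.52 and 1.57 within mice 3, 4 and 9 and 3.08, 2.88 and 0.73 within slides 1, 2 and 5. It was 1.09 after normexp correction, and the call was lost on slide 1 alone (adjusted p = 0.052) and by the methods' t-test (0.277).

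The Hoxa11 locus also carries an antisense transcript, Hoxa11os (Hoxa11as in the files), which overlaps Hoxa11 and is transcribed the other way. Its probe (mm9, chromosome 6, 52199709 to 52199768, plus strand) was well above background in all 21 fibers and was likewise higher in type 2B. The log2 signal ran from 6.53 over 7.86 to 8.74 in type 1 and from 7.97 over 8.79 to 9.97 in type 2B fibers, which overlapped. The difference was 1.13 (standard error 0.29, Benjamini-Hochberg adjusted p = 0.0129, limma; exact permutation test over 6 mouse means per type, two-sided p = 0.0087). Among the 39 other probes inside the spans of the clusters, 29 were tested, and Hoxa11os was the only 1 that passed. The cDNA was amplified and labeled by methods for which no source used here says that the strand is kept. In the Hoxb cluster 4 pairs of probes of opposite strand, offset by 13 to 16 bases, allow a look at this. The minus and plus probes of a pair were well above background in 0 and 0, 8 and 9, 11 and 11, and 8 and 10 type 1 fibers, and in 0 and 0, 6 and 6, 10 and 10, and 8 and 9 type 2B fibers. Signal was thus seen from both strands of nearly the same position wherever it was seen from 1. Transcripts from both strands would give the same counts, so the pairs cannot show whether the strand was kept. Whether sense and antisense transcripts can be told apart where they overlap is therefore not known. The probes of Hotair, the antisense RNA of the Hoxc cluster, numbered 5, exceeded background well in 3 to 9 fibers of type 1 and 1 to 7 of type 2B, and none passed.

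The promoter of Hoxa11 is shown because it lies inside the bounds of Hoxa11os (RefSeq, GRCm38.p6, the 250 bases before the start of the gene, chr6:52245811-52246060, minus strand). It was searched on both strands for TGACAG, a Meis type motif, and TGATNNAT, a Pbx and Hox type motif, which would stand in capitals and of which it held none.
Hoxa11 promoter: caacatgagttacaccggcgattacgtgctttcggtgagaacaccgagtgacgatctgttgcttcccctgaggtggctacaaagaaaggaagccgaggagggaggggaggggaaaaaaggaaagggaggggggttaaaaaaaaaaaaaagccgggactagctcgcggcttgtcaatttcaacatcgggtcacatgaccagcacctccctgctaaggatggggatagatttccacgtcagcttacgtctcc

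Among 32851 promoters of this length 15.9% hold TGACAG and 7.68% hold TGATNNAT, and of 22 Hox promoters 2 held the first and 3 the second. The windows of Hoxa13, Hoxd9 and Hoxd10 held neither. No match says only that these letters are not in this window.

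Hoxa13, which shapes the most distal segment of the limb, was higher in type 2B fibers by 1 of its 2 probes. The homeobox probe (mm9, chromosome 6, 52208980 to 52209039, minus strand) exceeded background well in 10 fibers of type 1 and 10 of type 2B. Its log2 signal was 4.47, 6.09 and 7.25 (lowest, median, highest) in type 1 and 6.68, 7.15 and 9.22 in type 2B fibers. The groups overlapped, and 5 fibers and 4 of 6 mice of type 2B exceeded all values of type 1. The mouse means were 6.17 ± 0.55 and 7.298 ± 0.47 (SD, n = 6 mice each; two-sided exact permutation test, p = 0.0065). The difference was 1.51 (standard error 0.36, Benjamini-Hochberg adjusted p = 0.00815, limma) and 1.64 without S6.4 (adjusted p = 0.00395). It was 2.11, 0.19 and 0.65 within mice 3, 4 and 9 and 0.97, 3.23 and 0.34 within slides 1, 2 and 5. The call was lost with slide as a block (adjusted p = 0.0768), with mice as a fixed effect (0.287), on slide 1 alone (0.358), by the methods' t-test (0.161), without mouse 2 and without mouse 3 (at most 0.097). The other probe (52208856 as its start), well above background in all 21 fibers, differed by 0.57 (standard error 0.23), which did not pass (adjusted p = 0.149). The exact permutation test of its mouse means gave p = 0.0043, two-sided.

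Hoxc10 and Hoxd10, genes of the same paralog group that act in the lumbar region and the hindlimb, were higher in type 2B fibers by smaller amounts. The Hoxc10 probe (mm9, chromosome 15, 102801857 to 102801916, plus strand) was well above background in all 21 fibers. Its log2 signal in type 1 fibers was 10.46, 11.03 and 12.08 (lowest, median, highest). In type 2B fibers the median was 11.99 and the highest 14.04, every fiber lay above the type 1 median, and 5 type 2B fibers lay above every type 1 fiber. The difference was 1.05 (standard error 0.31, Benjamini-Hochberg adjusted p = 0.0364, limma). The mouse means, 11.23 ± 0.46 and 12.08 ± 0.82 (SD, n = 6 mice each), did not differ past the threshold (two-sided exact permutation test, p = 0.052). Within mice 3 and 4 the difference was 1.24 and 2.21 and within mouse 9 it was -0.57, while within slides 1, 2 and 5 it was 1.18, 1.18 and 0.94. Without S6.4 it was 1.02 and did not pass (adjusted p = 0.058), and it was lost in 18 of the 30 fits that left out a fiber or a mouse.

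**Figure D4:**
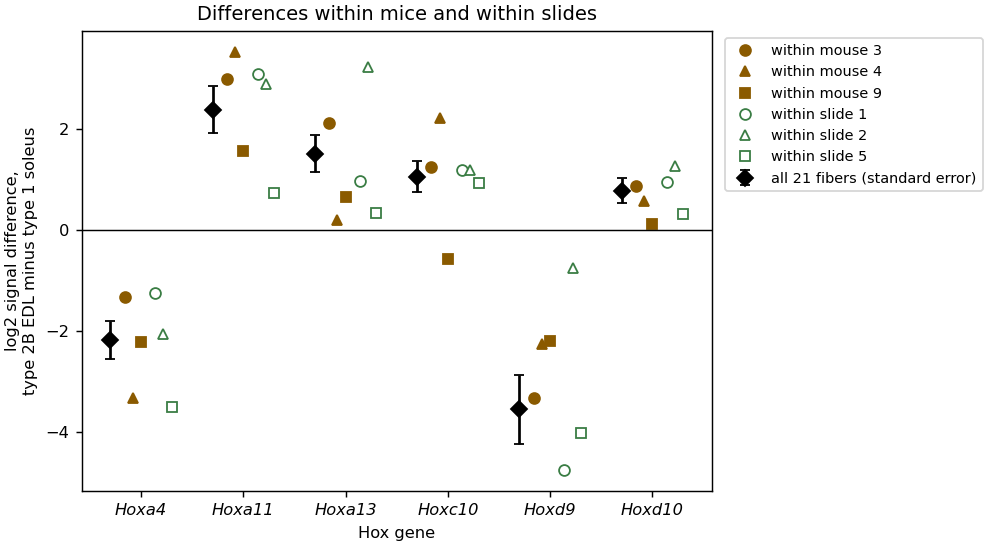
Difference in log2 signal, type 2B EDL minus type 1 soleus, of the 6 called Hox probes over all 21 fibers (diamonds, with standard error), within each of the 3 mice that gave both types (brown) and within each of the 3 slides that held both types (green, hollow). Mouse 9 sets the fiber S5.9 against E11.9, and mouse 4 sets S6.4 and S9.4 against E10.4. All values lie on the same side of 0 as the diamond except that of Hoxc10 in mouse 9 (-0.57).

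The Hoxd10 probe, in the homeobox (mm9, chromosome 2, 74532280 to 74532339, plus strand), exceeded background well in 10 fibers of type 1 and 10 of type 2B. Its log2 signal was 5.92, 6.25 and 6.93 (lowest, median, highest) in type 1 and 6.05, 7.18 and 8.296 in type 2B fibers, and 7 fibers and 5 of 6 mice of type 2B exceeded all values of type 1. The mouse means were 6.29 ± 0.18 and 7.16 ± 0.75 (SD, n = 6 mice each; two-sided exact permutation test, p = 0.011). The difference was 0.78 (standard error 0.24, Benjamini-Hochberg adjusted p = 0.0487, limma) and lay next to the threshold. It was 0.88, 0.58 and 0.12 within mice 3, 4 and 9 and 0.95, 1.26 and 0.32 within slides 1, 2 and 5. Without S6.4 it was 0.75 and did not pass (adjusted p = 0.0786), and it was lost in 24 of the 30 fits that left out a fiber or a mouse.

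In the order of the clusters, Hoxa11 and Hoxa13 are neighbours and were both higher in type 2B fibers. Hoxd9 and Hoxd10 lie side by side and differed in opposite directions. Of the 30 tested Hox probes that were not called, 27 were well above background in some fiber of both types. Their differences lay between -1.04 for Hoxd13 and 1.03 for Hoxa5, and 25 were smaller than 1 in size. The smallest adjusted p among the 30 was 0.0874, for Hoxc4, with a difference of -0.72 (standard error 0.25). Hoxc4 was well above background in every fiber, and it passed without mouse 9 and without the fiber E14.3. Hoxc10 and Hoxd10, of 1 paralog group, were both higher. Beside Hoxc4, the tested paralogs that were not called differed by -0.13 for Hoxb4, 0.38 and 0.55 for the 2 probes of Hoxa9, -0.30 for Hoxb9, 0.01 for Hoxc9, -0.36 for Hoxa10, 0.19 for Hoxc11, 0.19 and -0.65 for the 2 probes of Hoxd11, and -1.04 for Hoxd13, and Hoxd4, Hoxb13 and Hoxc13 were too dim to be tested. A p that missed the threshold does not show that these genes were alike in the 2 types. Hoxb5 and Hoxd8 were well above background in no type 2B fiber and in 3 and 4 type 1 fibers, and no fold is given because the bound was under 1.

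Hox proteins bind DNA with cofactors of the TALE homeodomain family, and Meis1, a member of it, was lower in type 2B fibers. Meis1 exceeded background well in 11 fibers of type 1 and 6 of type 2B. Its log2 signal ran from 5.61 over 7.10 to 8.28 in type 1 and from 1.92 over 5.69 to 6.37 in type 2B fibers. The mouse means did not overlap (4.91% of all tested probes). The difference was -1.97 (standard error 0.51, adjusted p = 0.0164, limma). In 2 type 2B fibers of slide 6, E7.7 and E12.5, Meis1 was at 2.26 and 1.92 and not well above background, while the other 8 lay between 5.27 and 6.37. The difference was -0.91 on slide 1 alone (adjusted p = 0.138), -1.09 with mice as a fixed effect (0.525) and -0.93 after normexp correction (0.00367), and the call was also lost by the methods' t-test (0.061), with spots lacking the signal flag left out (0.0594), with the replicate block, without mouse 3 and without mouse 4. The call of Hoxa11os was lost in 6 of 16 other fits, among them slide as a block (0.0586) and slide 1 alone (0.272), and without mouse 2 and without mouse 3 (highest adjusted p 0.143).

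**Figure D5:**
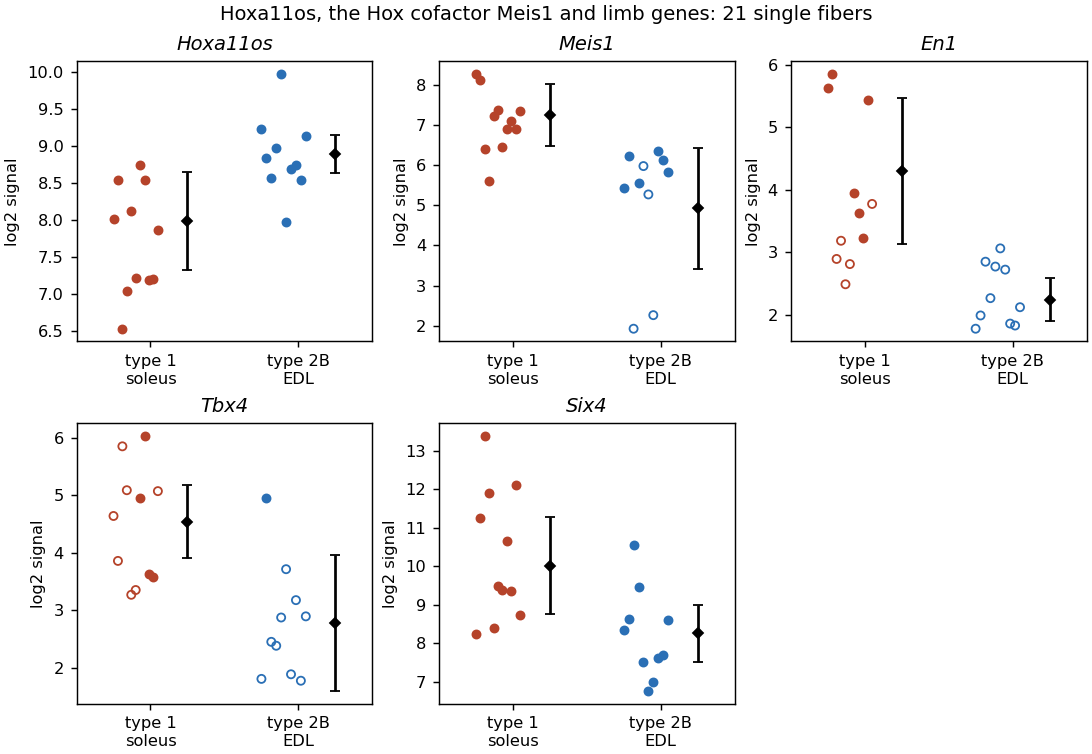
Log2 signal of Hoxa11os, the Hox cofactor Meis1 and the limb genes En1, Tbx4 and Six4, 1 point per fiber (11 type 1 soleus in red, 10 type 2B EDL in blue). Filled points were well above background and the diamond gives the mean and SD over 6 mouse means. Hoxa11os is higher in type 2B fibers, the other genes are lower, and En1 is hollow in all 10 type 2B fibers.

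Of 54 tested probes of 35 Polycomb and Trithorax genes, whose products keep Hox clusters silent or active, 4 passed (7.41%, against 7.57% of all probes), 3 of them lower in type 2B. Ash2l, a core subunit of histone H3 lysine methyltransferase complexes, was lower by both of its probes, by 1.16 (standard error 0.21, adjusted p = 0.00071, limma) and by 1.34 (standard error 0.31, adjusted p = 0.0072). The mouse means of both did not overlap (4.91% of all tested probes). Phc2, of Polycomb complexes, was lower by 1.58 (adjusted p = 0.027) and Dpy30, a partner of Ash2l, higher by 0.89 (adjusted p = 0.0208) by 1 of 2 probes. Of 26 tested probes of 25 limb genes, 4 passed (15.4%). En1, which marks the ventral limb, exceeded background well in 6 fibers of type 1 and none of type 2B (adjusted p = 0.0127), and no fold is given because the bound was under 1. Tbx4, the T-box gene of the hindlimb, was well above background in 4 and 1 fibers and lower in type 2B by 1.69 (adjusted p = 0.0107). Six4, of muscle precursors, was above background in all fibers and lower by 2.02 (adjusted p = 0.0392), and Tcf7l2, named after its value was seen as it lies outside the rule, was higher by 0.80 (adjusted p = 0.0488) by 1 of its probes. Of 24 tested probes of the 18 transcripts within or beside the clusters 1 passed (4.17%), Hoxa11os, and of 8 probes of the ParaHox list none did, nor did any probe of these lists pass Bonferroni. For Tbx4 9 of 10 type 2B fibers were not well above background, so its size is uncertain: it was -0.38 with spots lacking the signal flag left out (adjusted p = 0.909) and -0.41 after normexp correction (0.0419). Its call was lost in 7 of 15 other fits, among them scaling to the 75th percentile (0.0718) and slide 1 alone (0.117), and without mouse 4. En1 was lost in 3 of 16 other fits (0.0988 to 0.314) and without mouse 3. Phc2 was -0.51 after normexp correction and -0.81 on slide 1 alone (0.193). With mice as a fixed effect and on slide 1 alone no call of Ash2l, Phc2, Dpy30, Six4 or Tcf7l2 was kept. On means per mouse the calls of Hoxa11os (adjusted p = 0.112, limma), Tbx4 (0.057), Phc2 (0.0791), Dpy30 (0.224), Six4 (0.0794) and Tcf7l2 (0.19) were lost. Meis1, Ash2l and En1 passed there. Without S6.4 Six4 (0.0599) and Tcf7l2 (0.0629) were lost, while Hoxa11os, Meis1, Ash2l, Phc2, Dpy30, En1 and Tbx4 passed. Dpy30 and Phc2 were lost without mouse 2 and without mouse 3, Phc2 also without mouse 5, and Six4 and Tcf7l2 in 16 and 21 of the 30 fits that left out a fiber or a mouse.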

How the data were processed

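The authors deposited 1 scanner output per fiber (Agilent Feature Extraction 10.7.3.1, per the submitters' processing notes), with the processed intensity after background subtraction, the mean and background intensity and flags per spot, not normalized between arrays. They also deposited a table of quantile normalized intensity values, which has values for 3687 features and for none of the Hox probes, so it was not used for the results. Its columns for E13.3 and E12.5 follow each other's scanner output (19 of 21 columns match their own). Other flags per spot, also as deposited, marked outliers and signal over background.

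Processed intensities of all 21 arrays were brought to 1 distribution by quantile normalization and taken as log2 (limma 3.58.1, R 4.3.3). Control and outlier spots were left out, spots of a probe were averaged, and each probe was kept apart. No spot was saturated. A probe was tested if, for either type, 50% or more of the fibers carried the flag for a positive and significant signal. The test was lmFit and eBayes with the mouse as a random block (consensus correlation -0.0175). With a correlation this small the block had little effect, and without it the same 6 Hox probes passed Benjamini-Hochberg adjustment. The fit thus took fibers of a mouse nearly as independent. Mouse 3 gave the type 2B fibers E13.3, E8.3, E14.3 and E15.3. Bonferroni at 0.05 over all probes tested was the call, and Benjamini-Hochberg the second call rule. Mouse means were compared by an exact permutation test over 924 splits, which took no account of the mice that gave both types. For a probe not well above background in any fiber of a type only a bound was taken. Hox probes were named by the file, 43 of 44 matched to RefSeq by accession and 1 by symbol, with mm9 positions of the array design. The fit was run on simulated data with known shifts. Their noise was independent, without mouse or slide structure, so that run does not bear on how the fit handles such structure. The shifts were larger than the differences of Hoxa13, Hoxc10 and Hoxd10. The number of arrays limits the precision.

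The rule for the members uses gene names alone, but the Hox genes and the lists were chosen as a subject with earlier results of these data known. Named are all Hox genes, those called with their full values, and of the lists around them the called genes up to 3 per list. The alternatives changed the normalization, the background correction, dim and outlier spots, the filter, and how mouse, slide and replicate number entered the fit. They also changed the threshold, the test and the fibers or mice included. The other test was a Welch t-test on the linear signal, with spots lacking the signal flag left out. Scan day as a block, the exchange of the mice of E13.3 and E12.5, within-slide and within-mouse values, detection without S6.4, on slide 1 and without it, and the refits of the lists were added after seeing the data. Lists of markers were myofiber, satellite cells, connective tissue, tendon, endothelium, blood cells, Schwann cells and smooth muscle. Of the 10 tested myofiber probes 8 passed Benjamini-Hochberg adjustment. Some genes and a probe sequence of these lists are not reported here. Python 3.11.15, numpy 2.4.6, pandas 2.3.3 and matplotlib 3.10.9 were used for the other steps.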

Additional observations from a re-analysis of the deposited data

Results flagged for a closer look

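Among 18 groups of mouse means or type 2B fibers of the 6 called Hox probes, 1 held a value far from the others, where chance gives about 1 in 20. For Hoxa11 the type 2B mean of mouse 4, which is the single fiber E10.4, was 8.60 on the log2 scale against 7.04 for the nearest of the 6 mice, a gap of 0.741 of the range. The cause was not tested. Without mouse 4 Hoxa11 still passed Benjamini-Hochberg adjustment.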

How the results depend on the processing

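Bonferroni called 0 Hox probes in the main setting and under the 16 other fits, and 0 to 1 when a fiber or a mouse was left out, the 1 being Hoxa4 without the fiber E15.3 (type 2B replicate 10) or without mouse 3. Taking Benjamini-Hochberg as the threshold gave 6. That count of 6 became 1 with the mouse as a fixed block, 3 with slide as a block, 0 on slide 1 alone and 1 by the Welch t-test. On means per mouse it was 4, with Hoxc10 (adjusted p = 0.239, limma) and Hoxd10 (0.153) lost. It ran from 3 to 7 when a fiber or a mouse was left out, with 3 without mouse 2 and 3 without mouse 3. The mouse as a fixed block and slide 1 alone use fewer fibers for the difference. The cause of the changes in the count was not tested. Over the 16 fits Hoxa4 ran from -2.42 to -0.54, Hoxd9 from -4.75 to -1.87, Hoxa11 from 1.09 to 3.09, Hoxa13 from 0.97 to 1.64, Hoxc10 from 0.85 to 1.20 and Hoxd10 from 0.53 to 0.95, and none changed sign. The 1 value that did was Hoxc10 within mouse 9 (-0.57). The smallest sizes of Hoxa4, Hoxd9, Hoxa11, Hoxa13 and Hoxd10 came from normexp correction with its offset of 50. Hoxc10 was lost in 8 and Hoxd10 in 10 of the 16 fits. Exchanging the mice of E13.3 and E12.5 kept all 6 calls. Detection asked in all fibers of a type gave 12 genes in type 1 and 10 in type 2B in place of 23 and 22. The lists around the Hox genes held 0 probes past Bonferroni in every fit and 11 past Benjamini-Hochberg.

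The replicate numbers of the labels give no pairing: the correlation of deviations over 10 same-numbered pairs had a median of -0.028, and 1 of 10 was over 0.1. With the replicate block 0 Hox probes passed Bonferroni and 5 Benjamini-Hochberg, Hoxd10 being the 1 lost (adjusted p = 0.06). Signal over background limits what dim probes can show, as most Hoxa4 and Hoxd9 values of type 2B fibers were not well above it.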
